A study of Mus musculus with 12 samples.

Results

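Leap2 is 1 gene of the 20090 in a single-cell expression table of the mouse small intestinal epithelium, and it was chosen by its measured pattern in that table. Its levels are therefore given as a description, with no test. The table held 27881 cells of the 8 diet samples of the series, of which 27834 were kept, and 4147 of these had a Leap2 value above 0. All 8 samples came from adult Lgr5DTR-GFP mice (a line that carries a reporter at the stem cell gene Lgr5), and the cells were sorted as negative for CD45 and positive for EpCAM. Small intestines were cut into 30 equal pieces and the cells of each piece were tagged with their own barcode before pooling. The labels name neither the diet of any sample nor a treatment, and the position barcode of each cell was not used here. A further 4 samples of the series, 2 of total epithelium and 2 of sorted progenitors, were not analysed here.

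Leap2 encodes liver-enriched antimicrobial peptide 2, a secreted peptide made mainly in the liver and the small intestine. It binds the ghrelin receptor, Ghsr, and blocks it, and so opposes ghrelin, the hunger hormone that endocrine cells of the stomach and the upper intestine release after acylation by Mboat4. The peptide is cut from a longer precursor by proprotein convertases such as furin. Enterocytes are the absorptive cells of the villus: they arise from crypt progenitors, mature as they move up the villus, and differ along the length of the intestine.

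The gene lies on the minus strand of chromosome 11 (GRCm38, chr11:53422181-53423170, GENCODE M21) with 3 exons, and its coding sequence has 231 bases including the stop codon. That sequence is shown because it holds the whole secreted product. The capitals mark the last 40 codons, which follow a cleavage motif of 2 arginines set 3 residues apart. They encode the mature peptide with its 4 cysteine codons.
Leap2 coding sequence: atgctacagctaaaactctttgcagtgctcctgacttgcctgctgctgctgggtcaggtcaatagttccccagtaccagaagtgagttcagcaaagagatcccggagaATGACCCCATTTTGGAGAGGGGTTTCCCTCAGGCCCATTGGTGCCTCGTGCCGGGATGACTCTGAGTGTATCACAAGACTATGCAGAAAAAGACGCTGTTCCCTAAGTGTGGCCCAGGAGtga
No protein-coding gene overlaps Leap2. Aff4, a subunit of a transcription elongation complex, lies on the other strand with a gap of 350 bases, and Uqcrq, a subunit of respiratory complex III, lies 4751 bases away on the same strand.

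The deposited values were whole numbers of unknown scale rather than molecule counts, with cell totals of 2764 to 9739, so the depth behind a value is unknown. A level is given in ppm, the share of the summed values of a group of cells that a gene took. Cell barcodes fell into 8 sets by their ending. Their endings did not match the sample titles, so the table counts as 1 pooled sample, and the 8 sets are given as values or as lowest, median and highest. Whether the sets are separate animals is not stated, so the range over sets may be technical. A set held 2286 to 5320 cells with median detected genes of 1693.5 to 2576, and 80 pairs of barcodes were shared between sets. Epcam had a value in 99.9% of cells and Ptprc, which encodes CD45, in 0.234%.

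Leap2 was mainly an enterocyte gene in these data. The 7995 enterocyte-like cells were 28.7% of all cells and held 82.4% of the summed Leap2 values. Leap2 had a value in 36.0% of them (exact 95% interval 35.0 to 37.1%, counting error only), against 2.94% of 6950 progenitor-like cells (2.55 to 3.36%). The median number of detected genes was 2087 in enterocyte-like cells and 2854.5 in progenitor-like cells, so the class with more detected genes had fewer Leap2-positive cells. The highest value in a single cell was 48 in enterocyte-like cells and 3 in progenitor-like cells.

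By barcode set, the enterocyte-like level was 329.5, 191.1, 355.5, 480.9, 428.7, 297.1, 184.7 and 318.3 ppm in sets 1 to 8. Progenitor-like cells of the same sets had 7.87, 2.24, 8.78, 19.7, 6.41, 7.32, 1.78 and 5.55 ppm. The classes did not overlap in any pair of sets: the lowest enterocyte-like set lay far above the highest progenitor-like set. Pooled, the levels were 330.2 ppm in enterocyte-like cells and 5.07 ppm in progenitor-like cells, a log2 difference of 5.77 (range over the 8 sets 4.54 to 6.06, higher in 8 of 8 sets). That difference stood 22nd of 9414 genes considered, where the median gene was at -0.42. A gene passed the size rule used throughout when its mean over both groups was at least 10 ppm, its log2 difference was at least 1 in size and all 8 sets had the same direction. By this rule 15.1% of the genes considered were higher in enterocyte-like cells.

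Enterocyte-like cells fell into 5 clusters, and Leap2 differed strongly among them. Cluster 10, led by G0s2 (an inhibitor of triglyceride lipase), Sult6b2 and Cyp4a10, reached 1004 ppm with set values of 622.7 to 1220.4 ppm, and 88.4% of its 1580 cells had a Leap2 value. Cluster 3, led by Plb1, Enpp7 and the lactate transporter gene Slc5a12, had 206 ppm (107 to 312 ppm over sets). Cluster 8, led by the villus tip genes Nt5e and Ada, had 61.4 ppm (0 to 96.9 ppm). Cluster 5, led by Ros1, Reg1 and Gstm3 and with only 3 of the 12 enterocyte markers raised (11 were in cluster 10), had 30.8 ppm (12.6 to 55.3 ppm). Cluster 14, with the ileal genes Slc6a14 and Slc10a2, had 22.9 ppm (0 to 63.7 ppm). The set values of cluster 10 did not overlap those of cluster 3, and those of cluster 3 lay above those of clusters 8, 5 and 14, which overlapped one another. Leap2 itself did not take part in the clustering.

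**Figure D1:**
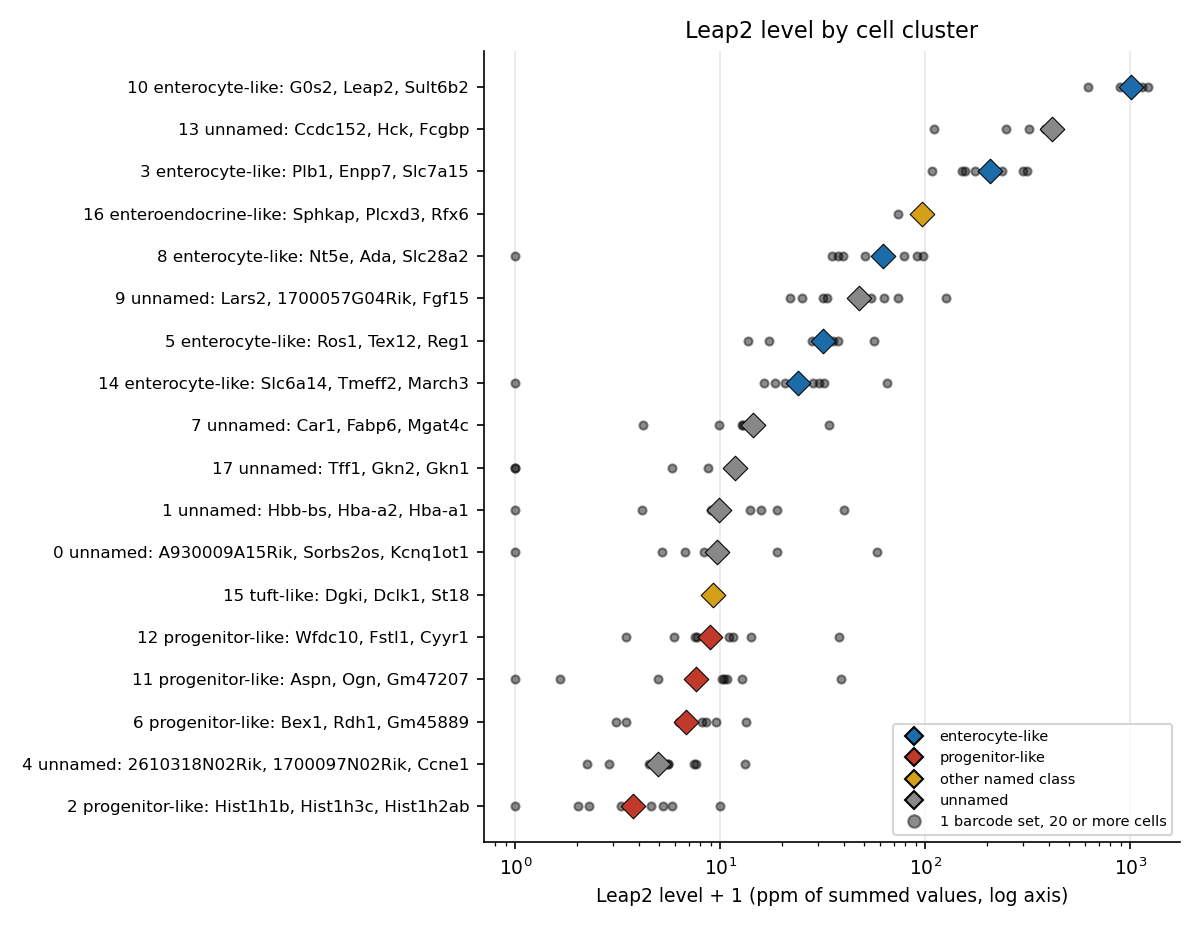
Leap2 level plus 1 in ppm (x axis, log scale) for the 18 clusters of at least 50 cells (y axis, with class and 3 leading genes). Diamonds are all cells of a cluster and dots are barcode sets with at least 20 cells there. Cluster 10 stands highest at 1004 ppm, and the 4 progenitor-like clusters lie at 2.73 to 7.86 ppm.

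A finer clustering separated the highest level further. A cluster of 1101 cells led by G0s2, Bbox1 (carnitine synthesis), Ltc4s and Cd36 (fatty acid uptake) had 1156 ppm, with a value in 92.5% of cells. Next came a cluster of 944 cells that was named goblet-like, with 9 goblet and 6 enterocyte markers raised. It had 399.6 ppm, with a value in 53.7% of cells, and 791 of its cells came from set 4. The other goblet-like cluster, of 1114 cells, had 7.05 ppm. Among enterocyte-like clusters, 1 of 601 cells led by Nos2, Ubd and Cxcl10 had 366 ppm. Another of 886 cells, led by the duodenal genes S100g and Reg1, had 340.5 ppm. The cluster with Plb1 and Enpp7 had 169.7 ppm. The 3 clusters that held Slc10a2, the ileal bile acid transporter gene, among their leading genes were at 24.6, 31.2 and 31.8 ppm.

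Outside enterocyte-like cells, Leap2 was highest in the unnamed cluster 13 (412.6 ppm) and next in enteroendocrine-like cells, and both groups also carried enterocyte transcripts. Other secretory-type cells had little: unnamed cluster 1, with 7 enteroendocrine and 6 goblet markers raised, had 8.84 ppm over 2842 cells. Enteroendocrine-like cells, the hormone-making cells of the epithelium, had 95.4 ppm over 278 cells, below the 115.9 ppm of all cells. Of these 278 cells, 14.0% had a value (10.2 to 18.7%). Tuft-like cells had 8.18 ppm over 336 cells. In the finer clustering the tuft-like cluster, of 410 cells, had 67.2 ppm. Its 2 sets with at least 20 cells had 9.10 and 354.7 ppm. Of 17 T cell-like cells, 0 had a value, which allows a share of cells with a value of up to 19.5%. That is the upper end of the exact interval, for the sampling of cells only, and it does not bound the share that express Leap2. Unnamed clusters together had 43.2 ppm over 12258 cells. The enteroendocrine-like cells came mostly from set 7, with 198 cells, and no other set held more than 19.

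The 39 enteroendocrine-like cells with a Leap2 value were compared with the 239 without one, a split made after the values were seen. All 12 enterocyte markers were higher in the cells with a value. Fabp1, a fatty acid binding protein, had 15755 ppm in cells with a Leap2 value and 1859 ppm in cells without one, and Apoc2, an apolipoprotein, had 3964 ppm and 352 ppm. Sst, the hormone somatostatin, had 5905 ppm in cells with a Leap2 value and 1059.6 ppm in cells without one. Ghrl, which encodes ghrelin, had 45.9 ppm in cells with a Leap2 value and 994.7 ppm in cells without one. Gip had 4432 and 8757 ppm. Chga had 179 and 127 ppm, but 46.0 and 141 ppm in set 7 alone. Ghrl ran the other way in cluster 13 of set 4, with 323.6 ppm in 481 cells with a Leap2 value and 38.1 ppm in 394 without. In set 7 alone the enteroendocrine-like Leap2 level of 72.4 ppm was 39.2% of the enterocyte-like level of that set, above all 12 enterocyte markers, which stood at 10.8 to 38.0% of theirs. Over all enteroendocrine-like cells Leap2 was at 28.9% of the level in all enterocyte-like cells, above 6 of the 12 markers, which stood at 14.4 to 67.9%. The part that enterocyte transcripts in these cells have in the Leap2 values was not tested.

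Set 4 had a second such group. Cluster 13, which stayed unnamed because 8 goblet and 7 enteroendocrine markers were raised in it alike (among its leading genes are Fcgbp, Clca1, Muc2 and Dclk1), held 1041 cells, 875 of them from set 4. Its Leap2 level in set 4 was 439.5 ppm, 91.4% of the enterocyte-like level of 480.9 ppm in that set. The 12 enterocyte markers stood at 48.8 to 172% of theirs (median 69.4%), with 9 of 12 below Leap2. Cluster 9, unnamed and led by Lars2 and Fgf15, had 46.3 ppm, 14.0% of the enterocyte-like level, below all 12 markers. Of the 336 tuft-like cells, 312 came from set 7, where Leap2 stood at 4.79% of the enterocyte-like level of that set, also below all 12 markers (2.48% with all sets pooled). In progenitor-like cells it stood at 1.54%, above 3 of 12.

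**Figure D2:**
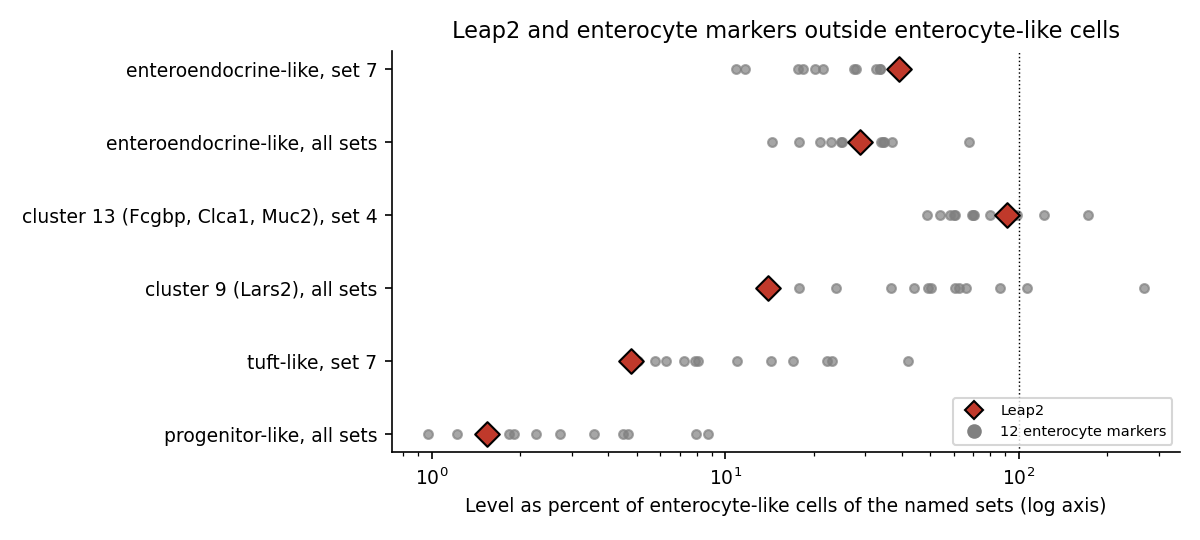
Level of Leap2 (diamonds) and of 12 enterocyte markers (dots) in 6 cell groups (y axis), as a percentage of the level in enterocyte-like cells of the set or sets named on the row (x axis, log scale). Leap2 lies above all 12 markers in enteroendocrine-like cells of set 7 at 39.2%, and below all 12 in tuft-like cells of set 7 at 4.79%.

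Position along the intestine was estimated from other genes. A regional score set 8 distal scoring genes (among them Clec2h, Tmigd1, Plb1 and Cubn) against 8 proximal ones (among them Gsta1, Ms4a10 and Cyp2b10), and enterocyte-like cells of each set were divided into 3 equal parts and into 10 equal bins of that score. The bins are ranges of a score rather than measured positions, and 14.6% of the enterocyte-like cells had a score closer than 0.1 SD to a boundary of the 3 parts.

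With this score of 16 genes, Leap2 was highest at the proximal end in every set. The proximal part had 602.8, 395.3, 677.3, 905.8, 752.8, 646.5, 422.6 and 731.6 ppm in sets 1 to 8. The middle part had 187.6, 55.0, 163, 246.7, 322.5, 85.7, 25.9 and 89.5 ppm. The distal part had 97.8, 64.9, 108.3, 136.5, 85.2, 81.5, 60.4 and 75.8 ppm. The lowest proximal set thus lay above the highest middle and distal sets, whereas middle and distal sets overlapped. Leap2 had a value in 59.9% of proximal cells (58.0 to 61.8%), 25.9% of middle cells (24.3 to 27.6%) and 22.3% of distal cells (20.7 to 23.9%), and 77.7% of all enterocyte-like Leap2 was in the proximal part.

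The proximal minus distal log2 difference was 2.86 (660.2 ppm in the proximal part and 90.1 ppm in the distal part, 2.59 to 3.25 over the sets, higher in 8 of 8). By the size rule 16.1% of 8049 genes considered were higher proximally and 9.84% were higher distally, with a median of 0.16. Without rescaling each group to a common total these counts were 2528 and 427 genes, against 1294 and 792 with it. Leap2 stood 58th from the top. The proximal minus middle difference was 2.15 (higher in 8 of 8 sets), which 3.34% of genes also passed in that direction. The middle minus distal difference of 0.71 did not pass (6 of 8 sets), where 3.36% of genes did.

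Leap2 fell steeply over the first bins and then levelled out. From bin 1 to bin 10 the pooled levels were 1059.7, 669.8, 341, 167, 148, 157, 122, 89.6, 91.0 and 80.8 ppm. Bin 1 was the highest in all 8 sets, with 735 to 1234 ppm, and held 40.1% of the enterocyte-like Leap2. In that bin 85.7% of 802 cells had a value, the median value was 5 and 29.3% of cells had a value of at least 10. The set ranges of neighbouring bins overlapped throughout.

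The size of this gradient rested on the proximal scoring genes, and the place of its highest level also changed with the genes used. With the proximal genes alone the difference was 4.24, and with the distal genes alone it was 0.44 (339.8 ppm in the proximal part, 394 ppm in the middle part and 251 ppm in the distal part), higher in 5 of 8 sets, so that the call was lost. A second score set the proximal genes Reg1, S100g, Slc40a1, G0s2 and Sult6b2 against the ileal genes Fabp6, Slc10a2, Fgf15, Mep1a and Xpnpep2. G0s2 and Sult6b2 are also leading genes of cluster 10, as Leap2 itself is, so this score is not independent of the Leap2 pattern. The same holds for the first score, since its proximal genes Cyp2b10 and Gsta1 are leading genes of cluster 10 too. The second score gave parts of 504.6, 289 and 163.7 ppm and a difference of 1.62 (higher in 8 of 8 sets). Along its 10 bins Leap2 was highest in bin 2 with 581 ppm, against 467 ppm in bin 1 and 109 ppm in bin 10, and the highest bin of single sets ranged from 1 to 9. Proximal cells also had more detected genes (median 2767) than middle (1915) and distal cells (1673). Among cells matched on detected genes the proximal part had 531 ppm and the distal part 124 ppm.

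**Figure D3:**
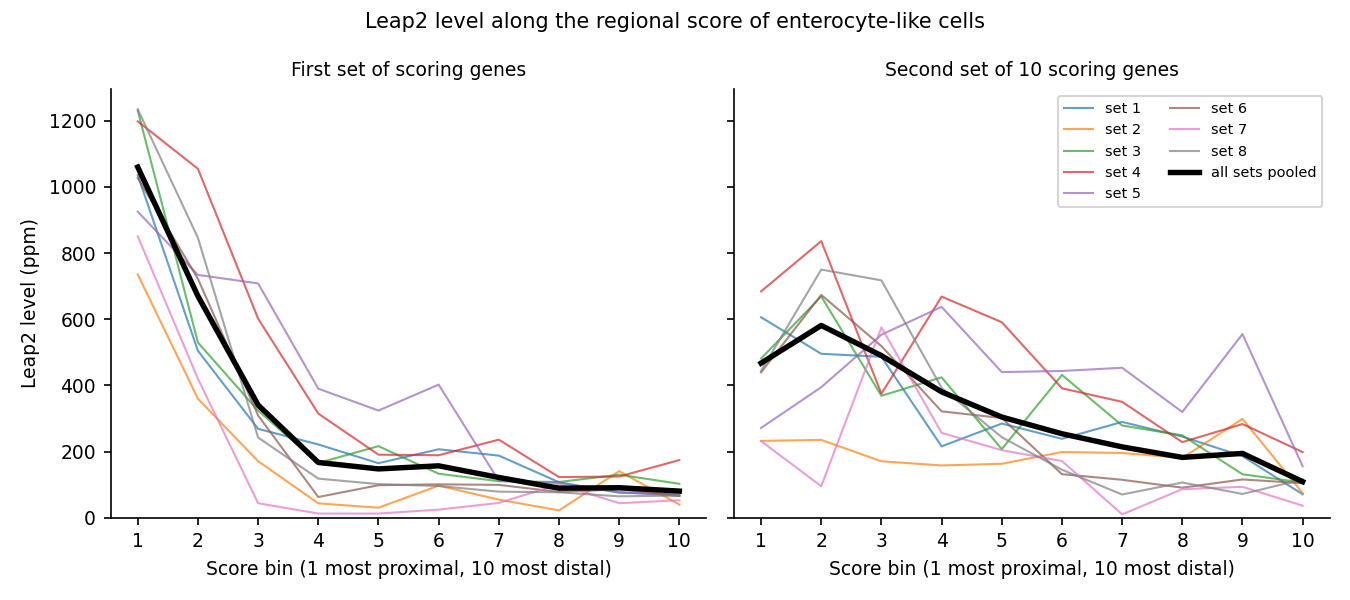
Leap2 level in ppm (y axis) over 10 bins (x axis) of the score from 16 scoring genes (left) and of the second score from 10 genes (right), for each of the 8 barcode sets (thin lines) and pooled (thick line). With the first score every set peaks in bin 1, and with the second the pooled level peaks in bin 2 at 581 ppm.

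Pooled levels ran the same way within clusters, with set ranges that mostly overlapped. In cluster 3 Leap2 had 572 ppm in proximal, 236 ppm in middle and 134 ppm in distal cells, with set ranges of 0 to 790, 97.5 to 568.1 and 81.8 to 188 ppm that overlapped. In cluster 10 it had 1035 ppm in proximal cells (673 to 1295 ppm) and 768 ppm in middle cells (209 to 1011 ppm), which overlapped too. In cluster 5 it had 46.7, 14.5 and 8.71 ppm, and the proximal sets (22.6 to 73.6 ppm) lay above the middle sets (5.78 to 21.8 ppm) but overlapped the distal sets (0 to 24.3 ppm). Cluster make-up differed between the parts: cluster 10 was 53.3% of the proximal part, and clusters 3, 8 and 14 were 48.4%, 24.3% and 22.2% of the distal part. Goblet, Paneth and stem cell markers in enterocyte-like cells ran the opposite way to Leap2. Markers of dividing progenitors were highest in the middle part instead (355, 665 and 482 ppm from proximal to distal). The 9 goblet markers summed to 1839 ppm in the proximal part, 4797 ppm in the middle part and 5940.4 ppm in the distal part, and the 8 Paneth markers to 1373, 3819 and 5459 ppm. The 10 stem cell markers summed to 194, 573 and 763 ppm. Their part in the Leap2 gradient was not tested.

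A villus score set 7 tip genes (among them Nt5e, Ada and Klf4) against 8 base genes of ribosome production and proliferation (among them Ptma, Npm1 and Ncl), ranked into 3 equal parts within each set and regional part. Leap2 had 114 ppm in the base part, 365 ppm in the middle part and 519 ppm in the tip part. The tip minus base difference was 2.18 (519 ppm at the tip and 114 ppm at the base, 1.26 to 2.98 over the sets, higher in 8 of 8), where 3.92% of genes were higher at the tip, 9.25% were higher at the base and the median gene was at -0.24.

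The difference was given for each regional part as well. The proximal part had 193, 677 and 1112 ppm from base to tip, a tip minus base difference of 2.52 (8 of 8 sets, background 3.51%). The middle part had 51.7, 214 and 181 ppm from base to tip, a difference of 1.78 (8 of 8 sets, 0.14 to 6.05, background 5.31%). The distal part had 80.5, 115 and 73.8 ppm from base to tip, a difference of -0.13 with 2 of 8 sets above 0. The direction there turned with the setting: the difference was 1.28 with base genes alone (8 of 8 sets), 1.28 at a clustering resolution of 2 (7 of 8) and -1.56 with tip genes alone (0 of 8). The difference between the regional parts in this respect was not tested.

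This difference rested on the base genes. Ranked by the base genes alone, Leap2 had 80.7, 278 and 623 ppm from base to tip. Ranked by the tip genes alone it had 381, 306 and 300.5 ppm from base to tip, with set ranges that overlapped throughout (225 to 596, 104 to 486 and 164 to 437 ppm), and the tip minus base difference was -0.34. Without cluster 5 it was 0.37 with 6 of 8 sets above 0. Low Leap2 thus went with high levels of the base genes, and the highest Leap2 did not go with the highest levels of the tip genes. Of the 7 tip genes, 6 were themselves higher distally, with a median proximal minus distal difference of -2.83. Nt5e, for example, had 26.4 ppm in the proximal part and 231.5 ppm in the distal part. With tip genes alone, villus position therefore cannot be told apart from region within a part. Cluster 8, led by Nt5e and Ada, had 76.2 ppm in the middle part and 33.3 ppm in the distal part.

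**Figure D4:**
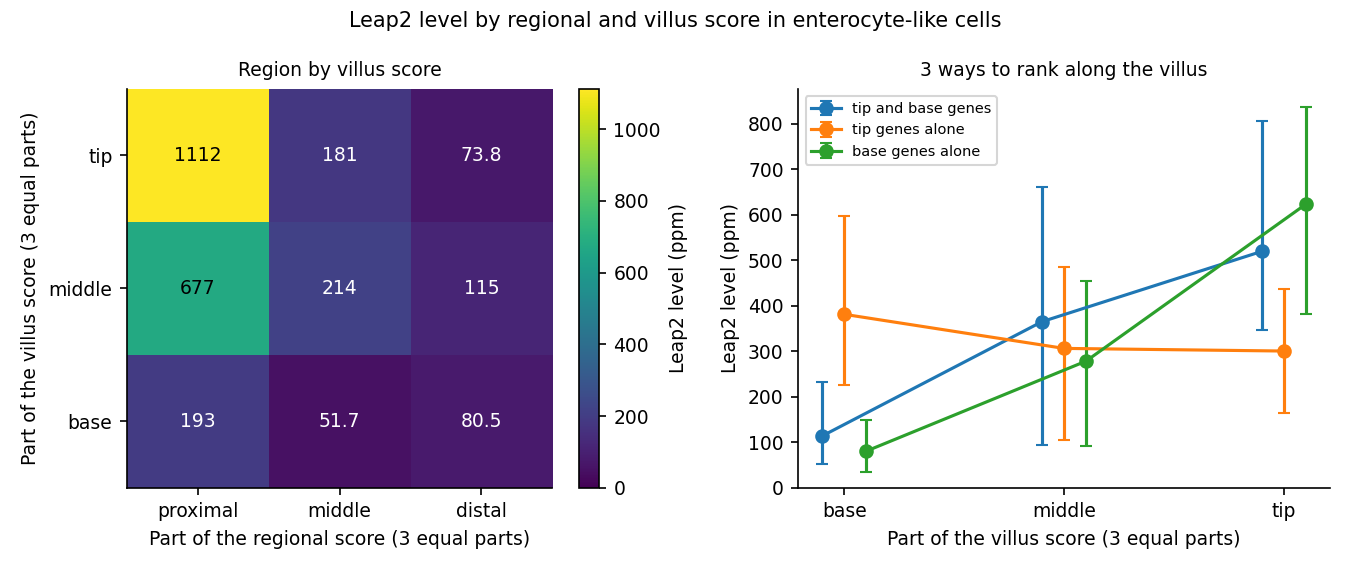
Left, Leap2 level in ppm (colour and numbers) by parts of the regional score (x axis) and of the villus score (y axis). Right, Leap2 level in ppm (y axis) by parts of the villus score ranked by 3 choices of genes, with points for all cells and bars for the lowest and highest barcode set: the order turns round when tip genes alone are used, with 300.5 ppm at the tip and 381 ppm at the base.

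The genes whose regional profile was most like that of Leap2 included enterocyte genes of lipid and retinol handling. Likeness was Pearson's r over the 10 bins, averaged over the 8 sets, for 8103 genes of at least 10 ppm in enterocyte-like cells. All bins share their libraries and the scoring genes, and r is given as a description. Rbp2, which binds retinol in enterocytes, was the most alike with 0.94 (0.84 to 0.98 over the sets). Mme (neprilysin, a membrane peptidase), Lpgat1, Ephx2 (soluble epoxide hydrolase), Prxl2a, P4hb (protein disulfide isomerase), Mttp (lipoprotein assembly), Acsl5 (fatty acid activation) and Gpx4 followed with 0.93 to 0.91. The median gene had 0.06, and 13 genes were above 0.9. Tspan8 (-0.92), Xist, Ptms, Ivns1abp and Tmsb4x (-0.87) were the least alike.

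Rbp2 had 12279 ppm in the proximal part and 2781 ppm in the distal part, a log2 difference of 2.14. Leap2 fell further along the bins than its 5 closest genes did: in bin 10 it stood at 7.62% of its bin 1 level, against 8.76% for Rbp2 and 16.0 to 27.5% for the other 4.

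**Figure D5:**
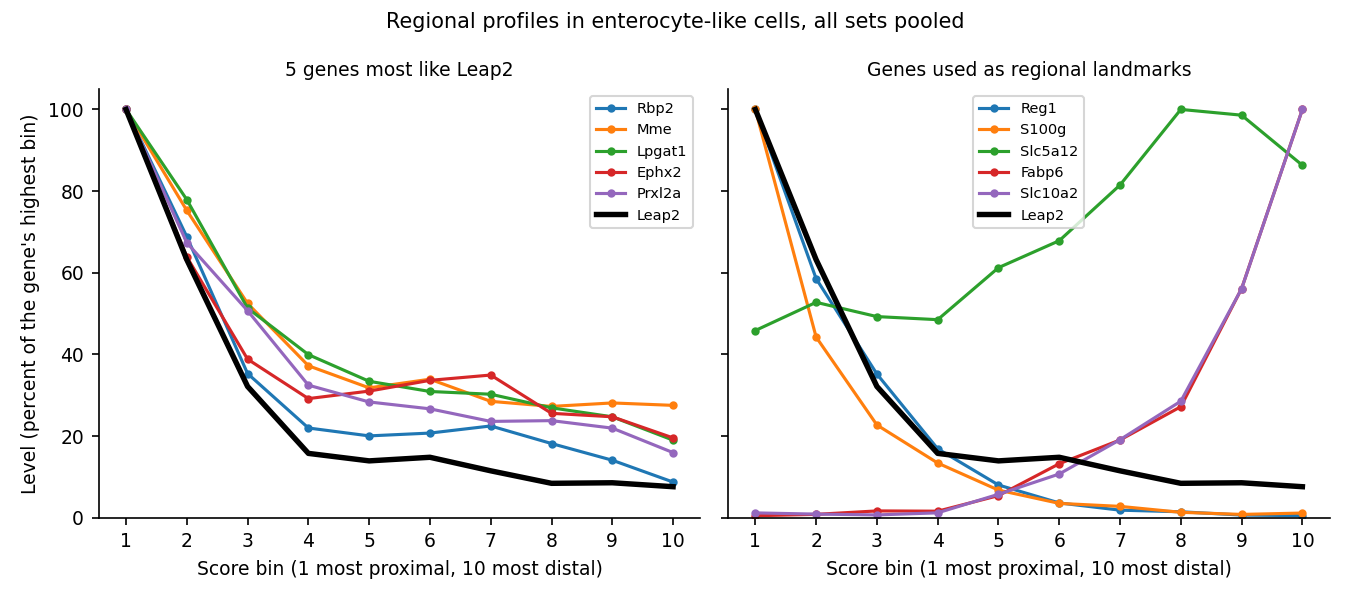
Level as a percentage of each gene's highest bin (y axis) over 10 regional score bins (x axis) in pooled enterocyte-like cells, for Leap2 (thick line) with the 5 genes most like it (left) and with genes used as regional landmarks (right). Leap2 falls over bins 1 to 4 beside Reg1, and Fabp6 and Slc10a2 rise over the last bins.

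Other measures of likeness named partly different genes. Over the 18 clusters, Prxl2a was the most alike (r = 0.98), followed by Pck1 (0.96, the gluconeogenic enzyme), Cyp2b10, Cd36, Ephx2, Apoc2, Slc28a1, Cym, Lct (lactase) and Slc5a4b (0.94). Over 7995 single enterocyte-like cells, Apoc2 was the most alike (r = 0.58), followed by Fabp1 (0.58), Rbp2 (0.57), Prxl2a, Acsl5, Ephx2, Ltc4s, Cbr1, Mme and Lpgat1 (0.48). With cells compared only within their set and bin, Guca2b, which encodes uroguanylin, and Apoc2 were at 0.50, with Spink1, Fabp2, Lct and Dnase1 next (0.47 to 0.43). Guca2b had nearly the same level in the proximal part (1582 ppm) and the distal part (1479.7 ppm). The 50 most alike genes over bins and the 50 most alike over clusters shared 10 genes, 20% of each list: Acsl5, Apoc2, Crot, Ephx2, Mme, Prxl2a, Rbp2, Scp2, Slc2a2 and Slc2a5.

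Among gene groups of the enterocyte, sugar handling ran most often in the same direction as Leap2. Of 12 carbohydrate genes, 7 were higher proximally and 0 distally, with a median log2 difference of 1.21 (the background is 16.1% and 9.84%, median 0.16). Among them were Sis (sucrase-isomaltase), Slc2a2 and Slc2a5 (hexose transporters), Khk (ketohexokinase), and G6pc and Fbp1 (gluconeogenesis). Slc2a5, the fructose transporter gene, had 132 ppm in the proximal part and 32.4 ppm in the distal part, a difference of 2.00.

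Lipid genes ran in both directions. Of 17, 4 were higher proximally (Fabp1, Cd36, Plin2 and Sar1b), where the background is 16.1%. Another 4 were higher distally (Slc27a4, Apob, Apoa1 and Npc1l1), where it is 9.84%, and the median was 0.25. Cd36 had 81.8 ppm in the proximal part and 15.2 ppm in the distal part. Of 15 peptide and amino acid genes, only Mme was higher proximally and 7 were higher distally (median -0.88), against the same background. Among the 7 were the peptide transporter gene Slc15a1 and the amino acid transporter gene Slc6a19.

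Of 12 other secreted products of enterocytes listed, 9 were considered, and 1 was higher proximally and 4 distally (background 16.1% and 9.84%). Il18 had 285 ppm in the proximal part and 35.9 ppm in the distal part, and Fgf15, Guca2a, Apoa1 and Apob were higher distally. Their median likeness to Leap2 over bins was 0.34, against 0.06 over all genes, with Il18 at 0.79 and Guca2b at 0.54. At the villus tip 5 of these 9 were higher, where 3.92% of all genes were: Guca2b, Apoa1, Apoa4, Apoc3 and Apob. Antimicrobial genes, the class in whose name Leap2 shares, were higher proximally for 2 of the 12 considered of 18 listed (Reg3a and Lypd8), which is near the background of 16.1%, and distally for 6, where the background is 9.84%. These 6 were Lyz1, Defa24, Defa30, Itln1, Ang4 and Saa1. All of them but Saa1 are also among the 8 Paneth markers, so this count largely repeats the distal rise of those markers in enterocyte-like cells. Reg3a, a lectin, had 455 ppm in the proximal part and 53.6 ppm in the distal part.

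Of the ghrelin system, Ghrl was considered in enterocyte-like cells, with 20.6 ppm in the proximal part and 48.3 ppm in the distal part (-1.19). Mboat4 had 0.11 ppm in the proximal part and 0.15 ppm in the distal part. Mrap2, a receptor accessory protein, had 0.11 and 0 ppm, and both genes lay below the 10 ppm needed. Ghsr was not among the genes of the expression table. The 13 enteroendocrine markers, Ghrl among them, summed to 389.8 ppm in the proximal part and 1092 ppm in the distal part. Hamp and Hamp2, the genes of the liver peptide hepcidin, were below 1 ppm in both parts. Of the convertases, Furin had 37.7 ppm in the proximal part and 43.9 ppm in the distal part and was higher at the villus tip (1.05). Pcsk5 had 710.1 ppm in the proximal part and 722 ppm in the distal part, and Pcsk7 passed in no direction either.

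Of 26 transcription factor genes, 4 were higher proximally and 3 distally (median 0.01), both near the background of 16.1% and 9.84%. Gata4, a factor of the upper intestine, had 222 ppm in the proximal part and 98.5 ppm in the distal part. Pdx1, Onecut2 and Nr1i3, the nuclear receptor CAR, were also higher proximally, and Hnf4a, Klf4 and Prdm1 were higher distally. Of these 26, Nr1i3 had the highest likeness to Leap2 over bins (0.70).

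The flanking genes had opposite gradients. Uqcrq had 1236 ppm in the proximal part and 583 ppm in the distal part (1.08), and Aff4 had 83.7 ppm in the proximal part and 227 ppm in the distal part (-1.43). Both were detected in progenitor-like cells as well, Uqcrq at 601 ppm and Aff4 at 92.2 ppm, where Leap2 had 5.07 ppm.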

How the data were processed

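The measurement was droplet-based 3′ single-cell RNA sequencing. Cell Ranger and build mm10 are named in the submitters' processing notes, and how the values were made from the reads is not stated there. The authors' deposited values are treated as a score: whole numbers, but with 2 more frequent than 1 in 25.3% of cells. Depth is therefore unknown, no count model was used, and no test of a difference and no p-value was computed. Leap2 and all gene lists were chosen with earlier results of these data known.

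A filter of 500 or more detected genes and no more than 25% mitochondrial values removed 2 cells. Scrublet in scanpy 1.11.5 marked 45 doublets (0.161%), which were removed; at under 0.5% the caller is not taken to have worked, so doublets may remain. Cells were scaled to 10000, log-transformed and clustered on 2000 variable genes without Leap2 (30 components, 15 neighbours, leidenalg 0.10.2, resolution 1), giving 19 clusters. A cluster took a class name from at least 3 markers at least 2-fold higher at 10 ppm or more, 2 more than any other class; these thresholds were set after the clusters were seen, and 7 clusters stayed unnamed.

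Log2 differences of ppm used a pseudocount of 1 ppm and understate low genes. Scores are means of log values of the scoring genes, which stayed out of the counts made with them. Named genes were Leap2, members of the counted lists, the 10 most and 5 least alike over bins, the 10 most alike over clusters and over cells, and the flanking genes, of which some are not reported here; the comparison within set and bin, the split of enteroendocrine-like cells and the finer clusters were added after seeing the data. The size rule, the likeness measure and the split into equal parts were tested on simulated data without differences between sets. Clustering, class naming, the scores and the matching on detected genes were not.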

Additional observations from a re-analysis of the deposited data

Results flagged for a closer look

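Of 20 sets of Leap2 values over the barcode sets, 4 held a set that stood far from the others, by a rule that chance meets in about 1 in 20 independent groups; these groups share sets and cells, so that rate is only a guide. Set 4 had 315.6 ppm in unnamed clusters, against at most 31.8 ppm in the other sets, and it held 875 of the 1041 cells of cluster 13. Set 4 also had 19.7 ppm in progenitor-like cells (139 cells) and 174 ppm in the most distal bin of enterocyte-like cells, against at most 8.78 and 103 ppm in the others. Set 2 was lowest in bin 8 with 22.4 ppm, where the next set had 77.0 ppm. Without sets 4 and 7, the log2 difference was 5.63 between enterocyte-like and progenitor-like cells, 2.88 between the proximal and distal parts and 2.33 between tip and base, each higher in 6 of 6 sets, with 1306 genes higher proximally and 807 higher distally.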

How the results depend on the processing

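All differences are on the log2 scale. Leaving out each barcode set in turn gave 5.61 to 5.89 for enterocyte-like minus progenitor-like cells, 2.79 to 2.92 for proximal minus distal, 2.11 to 2.35 for tip minus base, and 1175 to 1502 genes higher proximally and 744 to 828 higher distally. A pseudocount of 10 ppm gave 4.50 for enterocyte-like minus progenitor-like and 818 genes higher proximally. The proximal minus distal difference was 3.28 without rescaling (2528 and 427 genes), 3.38 at resolution 0.5 (388 genes higher distally), 2.08 in cells matched on detected genes (531 genes higher proximally), 4.24 with proximal scoring genes alone (729 genes higher proximally), 0.44 with distal scoring genes alone, 1.62 with the second scoring genes and 3.29 without cluster 5. Tip minus base was 0.74 at resolution 0.5, 2.93 with base genes alone, 0.37 without cluster 5 and -0.34 with tip genes alone, which also gave -0.23 in the proximal part and -0.81 in the middle part; without cluster 5 the middle part had -0.61. In the distal part, at -0.13 as reported, it was 1.28 with base genes alone and at resolution 2, 0.17 at resolution 0.5, 0.47 with the unnamed clusters closest to enterocytes and 0.02 without set 8. The cause was not tested. The alternatives without cluster 5 and without sets 4 and 7 were chosen after seeing the data. For the 15 genes most and least alike over bins, 4 alternatives gave 60 likeness values, of which 17 stayed within the spread over sets and 43 moved further, with the sign kept in 60: Gpx4 ranged from 0.69 to 0.97 and Ivns1abp from -0.95 to -0.12. No paired test was made, because the barcode sets could not be assigned to the numbered samples and may not be separate animals. Each contrast is given within each set instead. The unknown depth limits how low levels, such as those of progenitor-like cells, can be read.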
